A study of Homo sapiens with 6 samples.

Results

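The genes described here are 47 splicing factors and nuclear speckle proteins, taken by symbol from a table of 46427 genes measured in non-small cell lung cancer (NSCLC) cells with and without knockdown of the long non-coding RNA MALAT1. They comprise SR proteins, TRA2 proteins, scaffold and SR-related proteins of the speckle, factors of the 3' splice site, hnRNPs, PTB proteins, the kinases of SR proteins, and proteins of the paraspeckle, and were listed as partners of MALAT1 and of its neighbour NEAT1. Each of the 47 symbols matched 1 row, and all 47 genes had reads in all 6 libraries, with mean read counts from 445 (U2AF1) to 42886 (NONO). Total RNA was sequenced from H460, H1299, and A549, 3 established tumor cell lines, with 1 control library and 1 si-MALAT1 library per line. The si-MALAT1 cells had been transfected with a small interfering RNA against MALAT1. The labels give the treatment of the control libraries as "non", whereas the methods mention negative control cells as well as si-Control cells and do not name the kind that was sequenced, so transfection itself and the loss of MALAT1 cannot be told apart.

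Nuclear speckles are bodies in the nucleus that are rich in splicing factors, and SON and SRRM2 form their core. SR proteins bind exons and recruit the spliceosome, while hnRNPs and PTB proteins often act on splice sites in the opposite direction. MALAT1 is retained in speckles and binds SR proteins, and NEAT1 is the scaffold of paraspeckles, which form beside them around the proteins SFPQ, NONO, and PSPC1. The CLK and SRPK kinases phosphorylate SR proteins and thereby control where in the cell these proteins reside.

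Read counts summed to between 42506818 in the A549 control and 68515992 in the H460 control, and the 47 genes together took 0.810% to 1.02% of the reads. Epithelial keratins KRT8 and KRT18 and the mesenchymal gene VIM were present in all 6 libraries, and CDH1 was above 1 TPM, the deposited unit scaled for length and depth, in the A549 libraries only. The defining leukocyte and endothelial markers PTPRC, CD3E, and CDH5 were at 0 in every library, and the summed leukocyte markers did not pass 0.507 TPM. In A549 KRT8 was at 1778 TPM in the control and 793 in the si-MALAT1 library and KRT18 at 2918 and 1235, whereas the other 3 epithelial markers were higher in the si-MALAT1 library (EPCAM 3.61 and 8.04, CDH1 27.8 and 39.4, KRT19 0.888 and 2.23 TPM), and their part in the results for that line was not tested.

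MALAT1 was reduced in each line. Its read count was 231045 in the control and 43858 in the si-MALAT1 library of H460, 407551 and 47935 in the H1299 pair, and 93747 and 14447 in A549. After scaling to library size, the log2 fold change (si-MALAT1 minus control) was -2.32, -2.96, and -2.84. In a paired test across the lines with edgeR's quasi-likelihood method, MALAT1 passed at an adjusted p of 0.0381 (6.48e-55 to 0.999998 over the alternatives). Here and below, the value of 0.999998 is that of the fit without the pairing by cell line. MALAT1 did not pass without H1299 (0.125) or without A549 (0.275). NEAT1 had 45375 and 24742 reads in H460, 79320 and 52583 in the H1299 pair, and 28255 and 27438 in A549. Its mean log2 fold change was -0.48 ± 0.30 (SD, n = 3 cell lines), and its paired call rested on the tool, since DESeq2 gave an adjusted p of 0.0291 and edgeR did not call it.

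To ask whether the genes that code for MALAT1's protein partners changed along with it, their log2 fold changes were taken within each line. Few of the 47 genes passed a fold of 1.5. By scaled counts SRRM1 and SRRM2 were at least 1.5-fold lower in H460, and SRRM1 was at least 1.5-fold lower in A549. No member passed that fold in the H1299 pair or was 1.5-fold higher in any line. By log2(TPM + 1) the members past that fold were SRRM2, lower in H460 (-0.70), and SRPK2, higher in the H1299 pair (0.64). Among the 17834 genes with reads in all libraries, 9.5% were at least 1.5-fold higher and 10.3% at least 1.5-fold lower in H460, 11.7% and 11.4% in the H1299 pair, and 11.5% and 11.4% in A549. Of the 7714 genes past that fold in any line, 2760 had at least the mean read count of the lowest member. Among all 10754 genes with such read counts, the shares were 3.78% and 4.47%, 8.31% and 7.34%, and 5.37% and 7.14%. Only 2 of the 47 genes passed 1.5-fold in any line, beside 43.3% of all genes and 25.7% of the genes with such read counts. No member reached a log2 fold change of 1.5 in either direction. With 1 library per line and condition, these folds have no replicate check within a line.

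**Figure D1:**
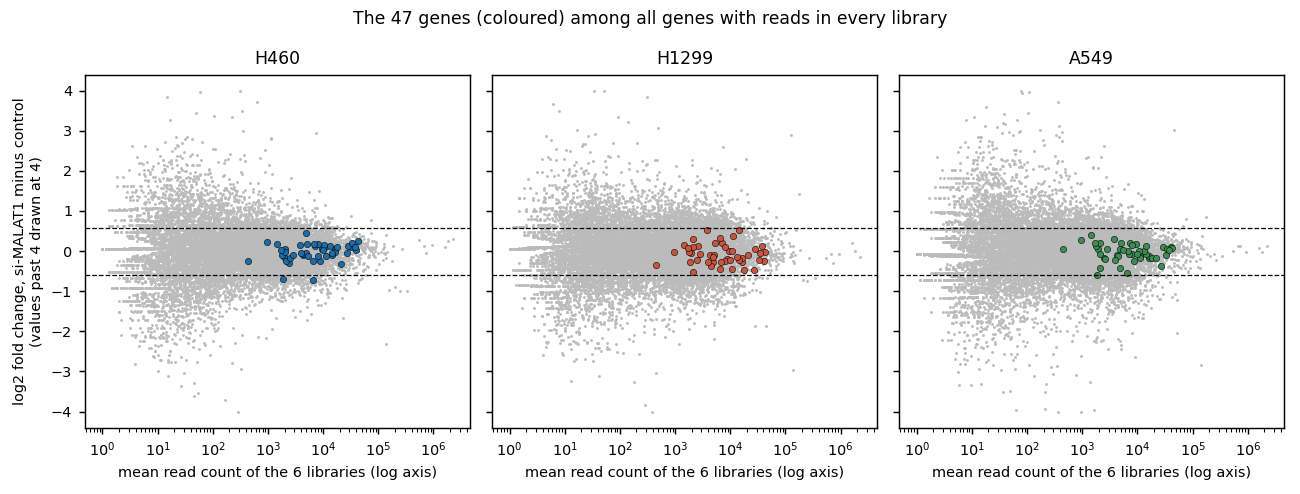
Log2 fold change (si-MALAT1 minus control) of every gene with reads in all 6 libraries against its mean read count on a log axis, 1 panel per cell line. Grey points are all 17834 genes, coloured points the 47 splicing and speckle genes, and dashed lines mark 1.5-fold. The coloured points lie among well-covered genes and 3 of the 141 pass a dashed line.

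The typical size of a change was small. The median absolute log2 fold change of the members was 0.12 in H460, 0.21 in the H1299 pair, and 0.12 in A549, beside 0.20, 0.26, and 0.22 among the genes with at least the read count of the lowest member. The signed median was -0.02, -0.09, and 0.00. The split by sign depended on the unit. By scaled counts 24, 31, and 23 members lay below 0 in H460, the H1299 pair, and A549, whereas by log2(TPM + 1) it was 35, 24, and 24, with medians of -0.13, -0.03, and -0.02. Of the 141 values 21 changed sign with TPM, 11 of them in H460, and each of these was at most 0.14 from 0 by scaled counts. The log2 fold changes given below are those of scaled counts, and a change of sign with TPM is stated where the text turns on it. Of the 47 genes, 8 lay above 0 in all 3 lines and 12 below 0 in all 3, leaving 27 with mixed signs. The corresponding shares were 21.4% and 18.8% of all genes, and 25.0% and 20.6% of the genes with at least the read count of the lowest member. Without H1299, 14 members lay above 0 in both remaining lines and 14 below, so 28 of 47 agreed in sign. The same held for 7228 of the 10754 genes with at least the read count of the lowest member. Signs agree more often over 2 lines than over 3. Across the 47 genes the fold changes of H1299 ranked most like those of A549 (Spearman's rho 0.64) and hardly like those of H460 (0.09), with 0.41 between H460 and A549. Over the 10754 better covered genes these values were 0.51, 0.17, and 0.49, and all of them share 1 set of scaling factors.

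**Figure D2:**
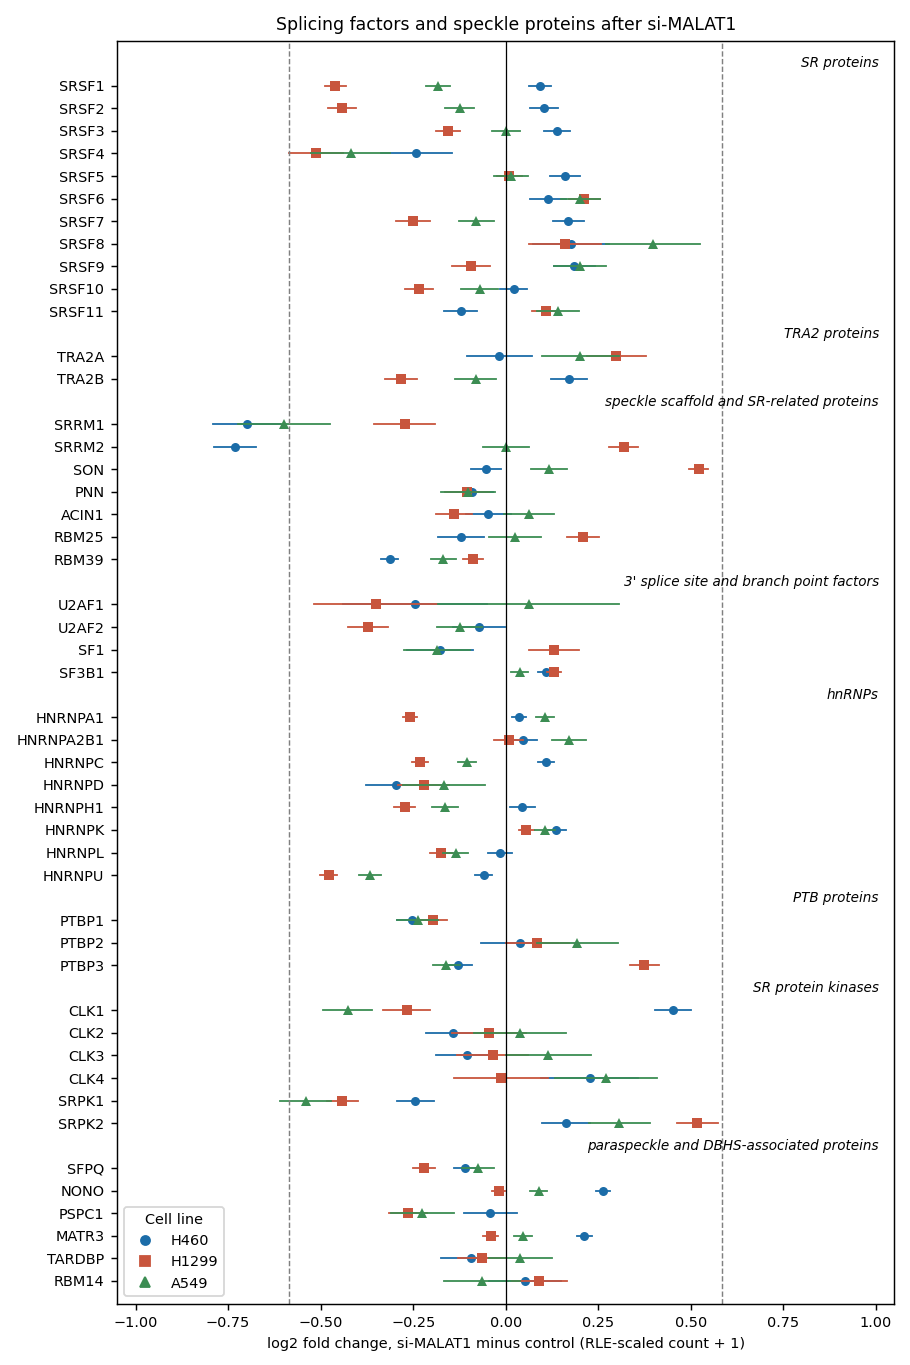
Log2 fold change of each of the 47 genes, grouped by role, in H460 (circles), H1299 (squares), and A549 (triangles). Bars are exact 95% intervals of the split of the reads between both libraries, which cover counting error only, and dashed lines mark 1.5-fold. SRRM1 in H460 and A549 and SRRM2 in H460 lie past the lower line, and no point passes the upper one.

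The 11 SR proteins, which bind exonic enhancers and define exons, did not move together. In H460 9 of the 11 lay above 0 by scaled counts (median log2 fold change 0.11) but 4 of the 11 by TPM (median -0.03), in the H1299 pair 4 by either unit (median -0.16 by scaled counts), and in A549 6 by scaled counts and 5 by TPM. SRSF4, a large SR protein, was the lowest of the group. Its read counts in control and si-MALAT1 were 1984 and 1586 in H460, 3832 and 2452 in the H1299 pair, and 1593 and 1317 in A549. The scaled count was thus lower in each si-MALAT1 library than in its own control, by a log2 fold change of -0.24, -0.51, and -0.42. SRSF4 did not pass the paired edgeR test (log2 fold change -0.41, SE 0.11, adjusted p = 0.187). Over the alternatives its adjusted p ranged from 0.0512 by DESeq2 to 0.999998 in the edgeR fit without the pairing. SRSF8, a close relative of SRSF2, stood highest on average (0.24 ± 0.13, SD, n = 3), from 855 and 1245 reads in A549 to 1721 and 1756 in the H1299 pair. SRSF6 was at 0.11, 0.21, and 0.20, but by TPM its H460 value was -0.02. SRSF1 and SRSF2, the best studied SR proteins and known to bind MALAT1, had log2 fold changes of 0.09 and 0.10 in H460, -0.46 and -0.44 in the H1299 pair, and -0.18 and -0.12 in A549. Both were lower in the H1299 pair and A549 by less than 1.5-fold, and in H460 their sign depended on the unit, with -0.05 for each by TPM. Exons of SRSF9 share 42.6% of their bases with GATC on the opposite strand and exons of SRSF2 share 20.7% with MFSD11, and whether the counting used strand is not given in the sources used here. Of the SR-like regulators TRA2A and TRA2B, TRA2A averaged 0.16 ± 0.16 and TRA2B -0.06 ± 0.23 (SD, n = 3 each).

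Among the 7 scaffold and SR-related proteins of the speckle all lay below 0 in H460 by scaled counts and by TPM, 4 (3 by TPM) in the H1299 pair, and 3 (4 by TPM) in A549. SRRM1 (chr1:24643273-24673281, + strand, hg38) is a coactivator that bridges SR proteins bound to exons and the spliceosome. By scaled counts it was the only member past 1.5-fold in more than 1 line. It had 2667 reads in the H460 control and 1552 in the si-MALAT1 library, 2799 and 2115 in the H1299 pair, and 1240 and 905 in A549. All 3 si-MALAT1 libraries were below their controls, with log2 fold changes of -0.70 (95% interval -0.79 to -0.61), -0.27 (-0.36 to -0.19), and -0.60 (-0.72 to -0.47). At least 1.5-fold lower in 2 or 3 lines were 7.22% of all genes and 4.22% of those with such read counts as the members. No member was 1.5-fold higher in 2 or 3 lines, beside 6.68% and 3.49% of these genes. The interval in A549 spans the threshold, and scaling to library totals took SRRM1 to the other side of it there. By log2(TPM + 1) SRRM1 was at -0.57, -0.14, and -0.42, short of 1.5-fold in each line. The paired edgeR test gave a log2 fold change of -0.54 with SE 0.13 and an adjusted p of 0.154, and 0.149 without H1299. DESeq2 called SRRM1 at an adjusted p of 0.0176, the lowest over the alternatives, of which the highest was 0.999998 without the pairing.

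SRRM2 and SON, the large proteins that hold the speckle together, differed in direction between lines. SRRM2 (chr16:2750903-2771412, + strand) had 6879 and 3914 reads in H460, 9609 and 10943 in the H1299 pair, and 3962 and 4384 in A549. Relative to library size, it was 0.602 of the control in H460, 1.25 times the control in the H1299 pair, and level with it in A549, which made it the member with the widest spread between lines (log2 fold change -0.14 ± 0.54, SD, n = 3). SON (chr21:33543038-33577514, + strand) had 10392 and 9457 reads in H460, 22766 and 29836 in the H1299 pair, and 6525 and 7821 in A549. The log2 fold change was -0.05, 0.52, and 0.12. By scaled counts the 1.44-fold higher value of the H1299 si-MALAT1 library was the largest upward change of any member in any line. SRPK2 was close behind it in the same pair (1.43-fold). By log2(TPM + 1) SRPK2 was the larger there, at 0.64 beside 0.58 for SON. Neither gene passed the paired edgeR test (adjusted p = 0.787 for SRRM2 and 0.631 for SON). PNN, a speckle and desmosome-associated protein, differed least between lines by scaled counts, at -0.09, -0.11, and -0.10. By TPM its values were further apart, at -0.22, -0.04, and -0.11. RBM39, an SR-related cofactor of U2AF, was at -0.31, -0.09, and -0.17, but at 0.03 by TPM in the H1299 pair.

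**Figure D3:**
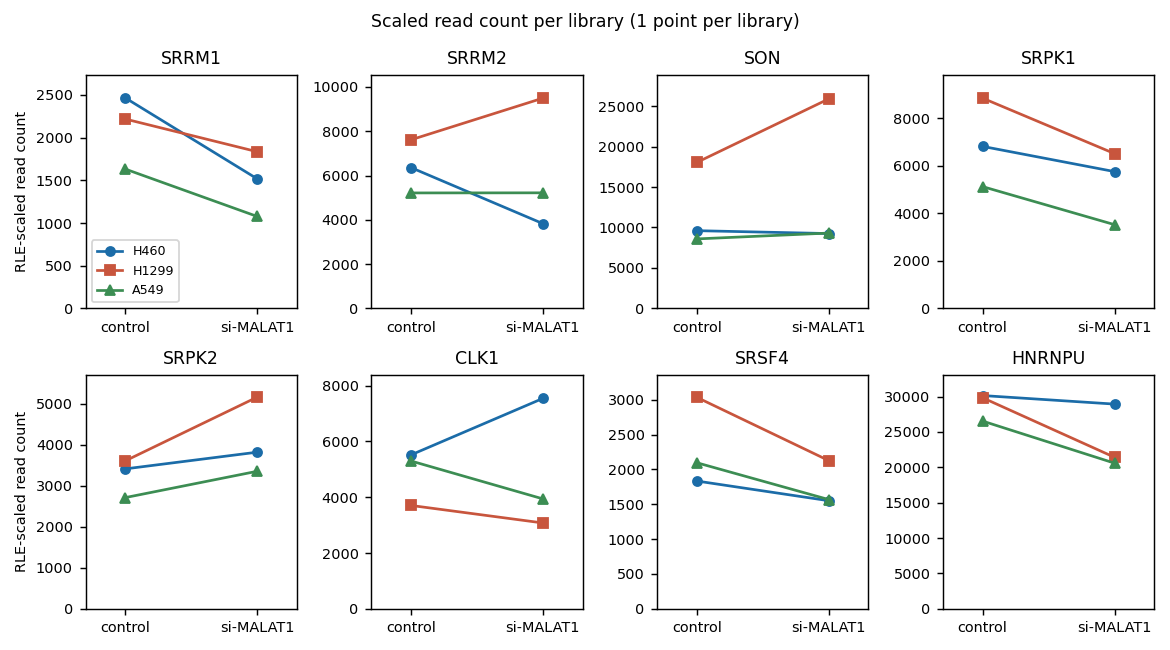
Read count scaled by the RLE size factors in the control and si-MALAT1 library of each cell line for 8 members, 1 point per library and a line joining each pair, with the vertical axis from 0. SRRM1, SRPK1, SRSF4, and HNRNPU are lower in the si-MALAT1 library of all 3 lines and SRPK2 is higher, whereas SRRM2, SON, and CLK1 differ in direction between lines.

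The 2 SRPK kinases, which phosphorylate SR proteins mainly in the cytoplasm and promote their entry into the nucleus, lay on opposite sides of 0. SRPK1 had 7377 and 5887 reads in the control and si-MALAT1 library of H460, 11169 and 7509 in the H1299 pair, and 3895 and 2961 in A549. Each si-MALAT1 library was lower than its control, with log2 fold changes of -0.24, -0.44, and -0.54. By edgeR the fold change was -0.43 (SE 0.11, adjusted p = 0.181), and DESeq2 called it at an adjusted p of 0.0183, the lowest over the alternatives, with 0.999998 as the highest. Without H1299 the edgeR value was -0.40 with an adjusted p of 0.282. SRPK2 had 3691 and 3905 reads in H460, 4552 and 5950 in the H1299 pair, and 2060 and 2817 in A549, which put each si-MALAT1 library above its control at 0.16, 0.52, and 0.31. Its edgeR adjusted p was 0.299 (0.127 to 0.999998 over the alternatives). Exons of SRPK2 share 19.4% of their bases with KMT2E on the opposite strand. Among the CLK kinases, which release SR proteins from speckles, CLK1 had the widest spread between lines after SRRM2 (SD 0.47, n = 3). Its reads were 5969 and 7713 in H460, 4677 and 3547 in the H1299 pair, and 4027 and 3310 in A549. The si-MALAT1 library was higher than the control in H460 (log2 fold change 0.45) and lower in the other pairs (-0.27 and -0.43), and the adjusted p of the edgeR test was 0.850. By scaled counts CLK2 and CLK3 stayed between -0.14 and 0.12 in each line, and CLK4 averaged 0.16 ± 0.15 (SD, n = 3).

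Factors that recognise the 3' splice site and branch point differed little from their controls. U2AF2, the large subunit of U2AF that reads the polypyrimidine tract, had log2 fold changes of -0.07, -0.37, and -0.12. SF3B1, the U2 snRNP protein at the branch point, had 0.11, 0.13, and 0.04. SF1, also of this group, had -0.18, 0.13, and -0.19. U2AF1, the small subunit, which contacts the AG at the intron end, was at -0.24, -0.35, and 0.06, but 97.1% of the 50-base windows of its exons also occur in the annotated copy U2AF1L5, which had almost the same counts. Summed over both entries, the values were -0.26, -0.34, and 0.06.

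The 8 hnRNPs, abundant proteins that coat nascent transcripts, were mostly below 0 in the H1299 pair (6 of 8 by either unit), while in H460 3 of 8 lay below 0 by scaled counts and 8 of 8 by TPM. HNRNPU, a nuclear protein that binds RNA and chromatin, was lowest on average. It had 32610 and 29581 reads in H460, 37651 and 24678 in the H1299 pair, and 20159 and 17288 in A549. The difference was slight in H460 and larger in the other pairs, with log2 fold changes of -0.06, -0.48, and -0.37, and the edgeR adjusted p was 0.317 (0.156 to 0.999998 over the alternatives). HNRNPK stood highest by scaled counts, at 0.14, 0.06, and 0.11, but by TPM its values were -0.10, 0.13, and 0.01. HNRNPD, which binds AU-rich elements, was lower in each si-MALAT1 library, at -0.30, -0.22, and -0.17. HNRNPA1 shares windows with many processed pseudogenes and some other genes. Of these, HNRNPA1P7 held 3.52% as many reads, HNRNPA1L2 2.21%, HNRNPA1P10 1.84%, and HNRNPA1P35 1.48%, and each of the rest fewer. Of the PTB proteins, PTBP1, the general repressor of exon inclusion, was lower in each line. By scaled counts the amount was nearly the same (-0.25, -0.20, and -0.24, with a mean of -0.23 ± 0.03, SD, n = 3). By TPM the values were -0.38, -0.13, and -0.23. PTBP1 shares 35.3% of its exon bases with PLPPR3 on the opposite strand. Its paralog PTBP2 was at 0.04, 0.09, and 0.19, and PTBP3 at -0.13, 0.37, and -0.16.

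Among the paraspeckle proteins and their associates, SFPQ, NONO, and PSPC1 are the proteins with which NEAT1 builds the paraspeckle. NONO was the most abundant member and had log2 fold changes of 0.26, -0.02 (0.04 by TPM), and 0.09. PSPC1 had -0.04, -0.26, and -0.23, and SFPQ had -0.11, -0.22, and -0.08, so that PSPC1 was lower in each si-MALAT1 library by less than 1.5-fold, as SFPQ was by scaled counts, though by TPM SFPQ was at 0.03 in A549. The log2 fold change of NEAT1 itself was -0.79 in H460, where PSPC1 and SFPQ differed from control by -0.04 and -0.11 on the same log2 scale. MATR3, TARDBP, and RBM14 stayed between -0.09 and 0.21 in every line by scaled counts.

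Over the 3 pairs together, the edgeR test called 0 of the 47 genes in either direction at an adjusted p under 0.05. It called 0.0% of 19122 genes higher and 0.00523%, which was 1 gene, lower, and it leaves 2 residual degrees of freedom. At an unadjusted p under 0.05 there were 5 members, SRRM1, SRPK1, SRSF4, and HNRNPU lower and SRPK2 higher, beside 15.0% of all genes tested. DESeq2 called 2 members lower, SRRM1 and SRPK1, and 0 higher, beside 4.76% and 4.57% of the 12449 genes to which it gave an adjusted p. The 3 pairs are 3 cell lines with 1 culture per condition. Both tools share information on spread across genes, so these p-values do not set each mean change against its own spread between lines alone. PNN, for example, had an SD of 0.0082 between lines but an edgeR SE of 0.10. Spread between lines cannot be told apart from differences between cultures.

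A further 156 genes of the splicing pathway, none of them a member, were examined in the same fit, and 154 of them were tested. The edgeR test called 0 higher and 0 lower. At an unadjusted p under 0.05, 6 were higher and 15 lower, beside 15.0% of all genes tested in either direction. Of the 49 snRNP proteins, which form the core of the spliceosome, 6 were lower and 0 higher. Neither share exceeded that of all genes. None passed 1.5-fold in one direction in all 3 lines. DESeq2 called 3 higher (DYRK2, MBNL1, and SCAF11) and 3 lower (KHSRP, SNRNP27, and HNRNPAB). Over all genes with an adjusted p it called 4.57% higher and 4.76% lower. KHSRP, a KH-domain protein of splicing and mRNA decay, had log2 fold changes of -0.64, -0.68, and -0.57, and the kinase DYRK2 had 0.51, 0.82, and 0.78. These 6 genes were named after their values were seen. Both KHSRP and DYRK2 thus differed from control by more than any member did on average, and neither passed edgeR (adjusted p = 0.0819 and 0.0930).

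More members were called between cell lines than between conditions, and the same held over all genes. Of these, 1 was called between conditions, and 4975 were called higher and 5085 lower in the H1299 libraries than in H460. In the same fit, both libraries of a line were its samples although they differ in treatment. There 26 of the 47 genes were called in at least 1 of the 3 comparisons between lines and 21 in none. The share of all genes called in at least 1 comparison was not counted, so the 26 have no background beside them. The H1299 libraries had 11 members higher and 4 lower than H460 (26.0% and 26.6% of all genes were called). A549 had 1 higher and 10 lower than H460 (18.9% and 19.3% of all genes), and 2 higher and 10 lower than the H1299 libraries (24.4% and 24.5%). The median absolute log2 difference of the members was 0.29, 0.27, and 0.23 in these comparisons, beside 0.83, 0.61, and 0.77 over all genes tested. Genes with fewer reads than any member are among those tested, and no comparison at matched read counts was made here. Every called difference had the same direction between the controls alone as between the si-MALAT1 libraries alone. This is no separate support, because the calls were made from these same libraries and favour members in which both differences agree. Fitted without the H1299 libraries, A549 had 2 members higher and 10 lower than H460, beside 4286 and 4377 of 19542 genes. Over all 6 libraries DESeq2 called 3 members higher in A549 than in H460 (20.8% of all genes).

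SON was the member that set the H1299 libraries furthest apart. Its level per length was 22.1 and 19.2 TPM in the control and si-MALAT1 library of H460, 23.1 and 25.2 in A549, and 48.1 and 72.4 in the H1299 libraries, which lay above the other 4 without overlap. The log2 difference was 1.19 (SE 0.18, adjusted p = 0.00230) from H460 and that of A549 from the H1299 libraries was -1.27 (SE 0.18, adjusted p = 0.00209). RBM25, a regulator that associates with the U1 snRNP, and PSPC1 were also higher than in H460 (0.85 and 0.78) and lower in A549 than in the H1299 libraries (-0.84 and -0.85). CLK2 was lower than in H460 both in the H1299 libraries (-1.12, SE 0.13) and in A549 (-1.15, SE 0.13), and CLK1 (-0.97) and RBM39 (-0.69) were lower in the H1299 libraries. In A549 RBM39 (-0.70) and SFPQ (-0.57) were also lower than in H460, and U2AF2 was the only member that edgeR called higher (0.79, SE 0.14, adjusted p = 0.00667). PTBP3 (0.72) and SRSF7 (0.47) were higher in A549 than in the H1299 libraries. SRRM2 was called between the H1299 libraries and H460 at 0.76 (adjusted p = 0.0465), but the difference was 0.26 between the controls and 1.31 between the si-MALAT1 libraries.

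**Figure D4:**
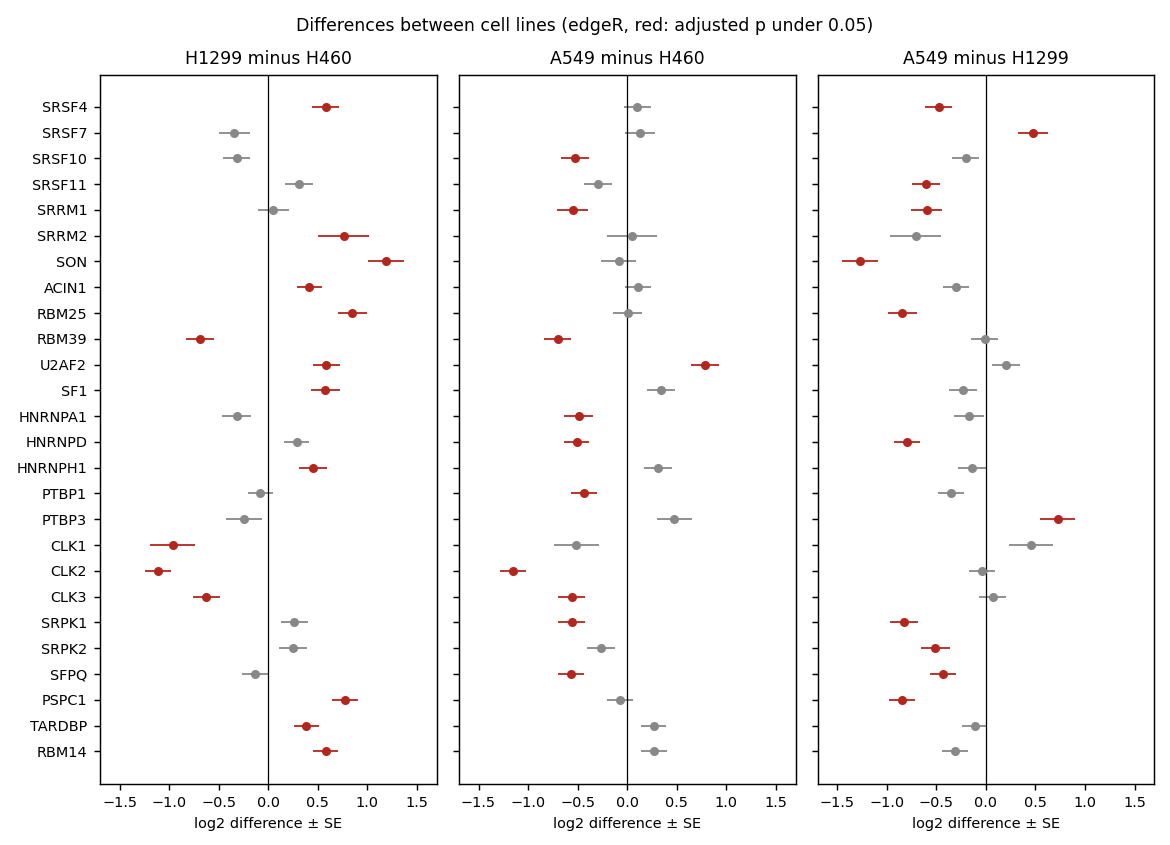
Fitted log2 difference ± SE between cell lines for the 26 members called in at least 1 comparison, with 2 libraries per line, and red points for an adjusted p under 0.05 by edgeR. SON lies at 1.19 above H460 and A549 lies at -1.27 from the H1299 libraries, while CLK2 lies below H460 in both other lines.

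Per length, the levels of the members spanned a wide range. The highest mean TPM over the 6 libraries were those of NONO (322, range 283 to 354), HNRNPC (249, 223 to 289), HNRNPA1 (225, 199 to 251), HNRNPK (201, 144 to 254), and HNRNPL (161, 115 to 197). Each of these neighbours in the order overlaps the next. The lowest were PTBP2 (5.84, 4.03 to 7.74), which is known mainly from neurons, SRSF8 (6.69), SRRM1 (7.21), CLK4 (7.77), and RBM14 (7.84), whose ranges also overlap. SRRM1, the member with the lowest fold changes on average by scaled counts, was thus among the 5 members with the lowest level. It had 8.72 and 5.57 TPM in H460, 9.24 and 8.29 in the H1299 libraries, and 6.69 and 4.74 in A549.

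**Figure D5:**
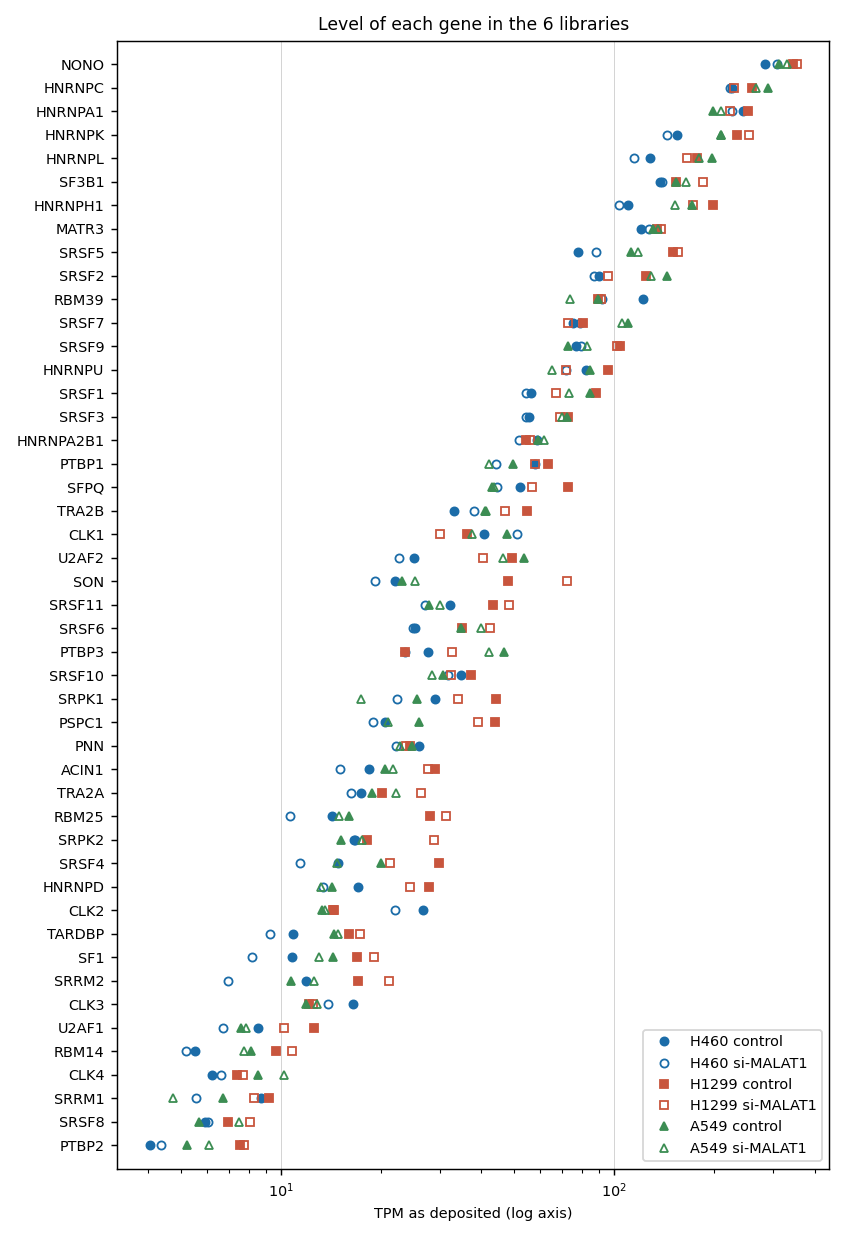
Deposited TPM of each of the 47 genes on a log axis, ordered by the mean of the 6 libraries, with filled symbols for control and open symbols for si-MALAT1 libraries. NONO is the highest at a mean of 322 TPM and PTBP2 the lowest at 5.84 TPM, and the H1299 points of SON lie to the right of the other 4 libraries.

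The 3' untranslated regions (3' UTRs) of the members were searched for the 7-base words TGAATCA and ATGAATC on the transcript strand, which overlap in ATGAATCA. Earlier work on these libraries had picked these words for their relation to the fold changes, so the search describes where they occur and supports nothing further. Of the 47 genes, 8 held a word in their longest annotated 3' UTR (17.0%), beside 18.7% of the 12242 genes searched, whose counts averaged 50 or more. The 4 sites with the whole run ATGAATCA are shown because SRRM1, the gene with the lowest mean fold change, holds one of them, and the capitals mark the run within its flanks (hg38, 5' to 3' on the transcript strand).
SRRM1 (chr1:24672822-24672847, + strand): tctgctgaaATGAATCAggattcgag
SRSF1 (chr17:58002641-58002666, - strand): cttctttggATGAATCAttgttaata
PTBP3 (chr9:112223388-112223413, - strand): attaaccttATGAATCAgaagtctga
PTBP2 (chr1:96816588-96816613, + strand): ggaagtgtaATGAATCAttatattag

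These 4 genes did not share a direction. SRRM1 was lower in each line and PTBP2 lay above 0 in each, while PTBP3 had mixed signs, and so had SRSF1 by scaled counts. The other 4 genes with a word were TRA2B, SRSF10, ACIN1, and RBM25, and PTBP2 held 3 sites in a 3' UTR of 10334 bases. The median log2 fold change of the 8 genes was -0.01, -0.19, and -0.08, and that of the 39 without a word was -0.02, -0.09, and 0.00. Over all genes searched, the medians with a word were -0.11, -0.04, and -0.13, and without a word 0.05, 0.05, and 0.03. SRPK1, SRSF4, and HNRNPU, the other members at an unadjusted p under 0.05 in the lower direction, held no word in this region. The 3' UTRs of the members with a word were longer than those without, with a median of 4461 against 1520 bases.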

How the data were processed

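Cultures of 3 NSCLC cell lines, each as 1 control and 1 si-MALAT1 library, were grouped by the treatment and cell line in the sample labels. Total RNA was depleted of ribosomal RNA, prepared with a stranded kit, and sequenced in paired reads. Per the methods, the authors removed adapters and low-quality bases, aligned to hg38 using HISAT2 2.1.0, and quantified genes using StringTie. The submitters' processing notes name StringTie 1.3.4b and also list hg19, whereas the methods name another StringTie version. The deposited read counts are whole numbers without normalization, and the deposited TPM are scaled by the authors for length and depth. The deposited gene annotation supplied coordinates on GRCh38, and all 234 coding transcripts of the members began with ATG when read from the hg38 sequence. The table also holds 18 columns of other samples, which were not used.

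Within a line, counts were divided by RLE size factors, log2 was taken after adding 1, and the control was subtracted from si-MALAT1, over the 17834 genes with reads in all 6 libraries. Exact 95% Clopper-Pearson intervals describe the split of the reads of a pair and cover counting error only. Across lines, edgeR 4.0.16 was fitted to the counts with TMM, filterByExpr, a quasi-likelihood test, and a block for cell line, because both libraries of a pair come from 1 line. P-values were adjusted by Benjamini-Hochberg over 19122 genes. DESeq2 1.42.0, other scalings, filters, and pseudocounts, and leaving out each line were the alternatives. Comparison with genes of at least the lowest member's read count, and counts of signs under each scaling, were added after seeing the data. Both procedures were run on simulated counts. Those for the folds within a line held counting noise only, and those for edgeR varied less between libraries than the fitted data. Neither shows how folds from single libraries behave.

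The members and lists were chosen with earlier results of these data known. Genes named with values were those past 1.5-fold in any line, the members with the highest and lowest mean log2 fold change of each role group, the 5 highest and 5 lowest in TPM, the 3 with the largest called differences between lines in each direction, those with overlapping or copied genes, MALAT1, and NEAT1. Other members with values were added after their values were seen. The versions were Python 3.11.15 (with pandas 2.3.3, scipy 1.17.1, and numpy 2.4.6) and R 4.3.3. One further check of the cell line labels is not reported here.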

Additional observations from a re-analysis of the deposited data

How the results depend on the processing

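No called value reversed its direction, but many small uncalled values did. With log2(TPM + 1), 21 of the 141 line and member values changed sign (11 in H460, 7 in the H1299 pair, 3 in A549) and 35, 24, and 24 members lay below 0, in place of 24, 31, and 23. With TMM-scaled counts 5 changed sign, 33 members lay below 0 in the H1299 pair and 26 in A549, and the A549 median went from 0.00 to -0.02. Library totals and a pseudocount of 10 changed no sign. The counts of members past 1.5-fold are small and moved easily: members lower in A549 numbered 0 with counts scaled to the library total, with log2(TPM + 1), and with a log2 fold change of 1.5 as the threshold, and under each of these 3 settings 0 members passed in one direction in at least 2 lines. With log2(TPM + 1), 1 member (SRRM2) was lower in H460 and 1 (SRPK2) higher in the H1299 pair. With the threshold at a log2 fold change of 1.5, 0 were lower in H460. Leaving out each line, members above 0 in every remaining line numbered 9 to 14, members below 0 in every remaining line 14 to 20 (20 without H460), members past 1.5-fold in one direction in every remaining line 0 to 1 (1 without H1299), and in at least 2 lines 0 to 1 (0 without H460 or without A549). Signs agree more often over 2 lines than over 3. Without H1299, H460, and A549, 28, 33, and 26 of the 47 genes agreed in sign. Of the 10754 genes with at least the lowest member's read count, 7228, 7321, and 6007 did. DESeq2 called 2 members lower, 3 other splicing genes higher and 3 lower, and 3 members higher in A549 than in H460. With no filter on low counts, 7 members were called higher in the H1299 libraries than in H460, beside 5085 of 31353 genes. In the same fit 1 was higher in A549 than in the H1299 libraries, beside 4366 genes. Without A549, H460, or H1299, 7, 4, and 2 members were called higher in the comparison that remained, in place of 11, 2, and 1. Over all genes, these fits called 5342 of 20619, 5467 of 20386, and 4286 of 19542 higher. The fit without the replicate block, that is, without the pairing by cell line, called 0 members and gave MALAT1 an adjusted p of 0.999998. In it 161 genes had an unadjusted p under 0.05, against 2863 with the block. MALAT1 was also not called with no filter (0.171), and without H460 its adjusted p was 0.00705. Of the alternatives for the counts and differences described, 108 stayed on the same side and 24 moved; the cause was not tested. The lowest read count of a member in a library was 260 (U2AF1 in the A549 control), so depth limits the value of that gene most.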
